A study of Bos taurus with 30 samples.

Results

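The day 4 corpus luteum and the day 11 corpus luteum differed in their early transcript response to prostaglandin F2α (PGF2α) in 264 of 24016 probe sets. The quantity followed here is the difference between the days in the 4 h response, that is, the change from 0 h to 4 h on day 11 minus the same change on day 4. The members are all 24016 probe sets of the Affymetrix GeneChip Bovine Genome Array that are not controls, measured in 20 of the 30 arrays of the study. The 4 groups were corpora lutea of Angus crossbred heifers on day 4 at 0 h, day 4 at 4 h, day 11 at 0 h and day 11 at 4 h. The 0 h animals were given saline, and the 4 h animals had received PGF2α 4 h before the gland was collected. Each group held 5 heifers with 1 array each, and no animal was sampled on both days. A gland is whole tissue, so a change in cell number and a change in RNA per cell cannot be told apart in any value below. The 10 arrays taken at 24 h entered the estimate of the spread and served to follow the same genes later.

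The corpus luteum forms from the ruptured follicle and secretes progesterone. PGF2α from the uterus ends its life by acting on a receptor that couples through Gq to phospholipase C, calcium and protein kinase C. A gland of the midcycle regresses after PGF2α, whereas the young gland of the first days after ovulation does not regress, although it carries the receptor. The comparison of the days asks which transcripts responded differently in the gland that regresses.

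At 4 h, 4409 probe sets had changed on day 11 (18.4% of those tested) and 1018 on day 4 (4.24%), by limma with Benjamini-Hochberg adjusted p under 0.05. On day 11, 1927 of these rose (8.02%) and 2482 fell (10.3%), and on day 4, 645 rose (2.69%) and 373 fell (1.55%). The difference between these responses passed the same threshold for 264 probe sets, 1.1% of those tested. The day 11 response was higher for 174 of them (0.725%) and lower for 90 (0.375%). A call on one day only was rarely a call for the difference. Of the 3679 probe sets called on day 11 and not on day 4, 199 (5.41%) had a called difference, and of the 288 called on day 4 and not on day 11, 15 (5.21%) did. The standard error of the difference was larger than that of a response, with medians of 0.175 and 0.124 log2 units, and the smallest difference called was 0.40. The count fell to 157 without day 4, 4 h replicate 2, the only one of the 30 arrays whose omission moved it by more than 1.5 times, and 156 of those were among the 264. The count for day 4 alone was 608 without day 4, 4 h replicate 1.

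The 264 probe sets responded mainly on day 11. Their median absolute response was 1.00 log2 units on day 11 and 0.28 on day 4, and the median absolute difference was 0.96. On day 11 only, 199 had changed; 15 had changed on day 4 only, 44 on both days in the same direction, 3 on both days in opposite directions and 3 on neither. Of the 174 with a higher day 11 response, 167 rose on day 11 and none fell, while 36 rose and 6 fell on day 4. Of the 90 with a lower day 11 response, 73 fell and 6 rose on day 11, and 18 rose and 2 fell on day 4. The platform annotation named 154 of the 264 probe sets, which stood for 128 of the 9162 genes measured (1.4%) when each gene was read from its brightest probe set. Read this way, the day 11 response was higher for 0.939% and lower for 0.458% of all genes, and the counts for gene lists below stand against these shares.

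**Figure D1:**
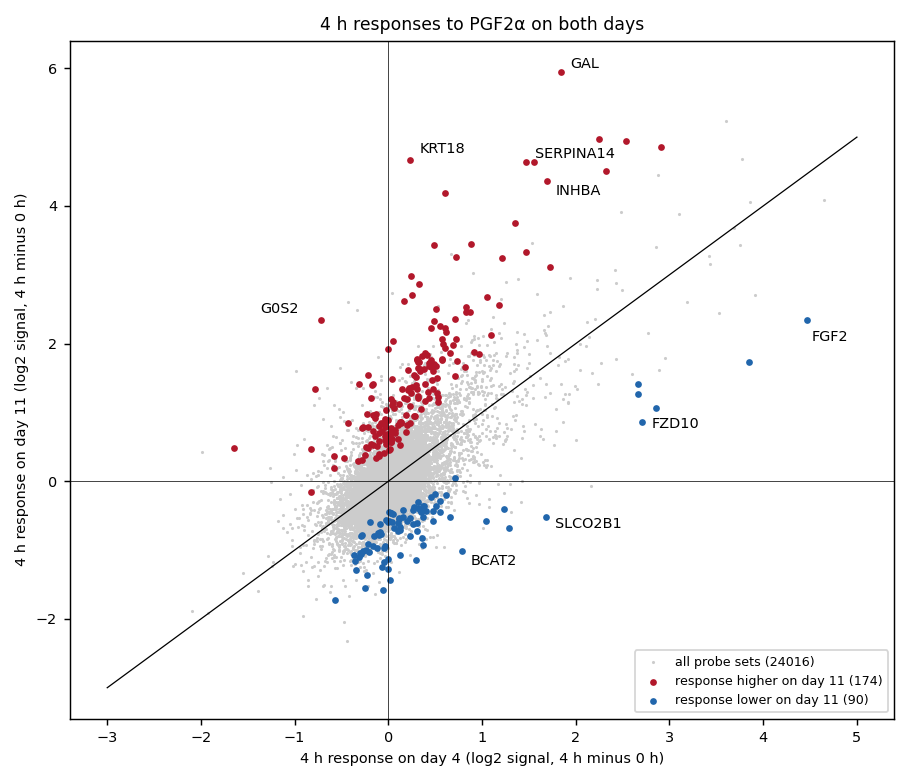
Response at 4 h (log2 signal, 4 h minus 0 h) on day 4 (horizontal axis) and on day 11 (vertical axis) for all 24016 probe sets in grey, with the 174 whose day 11 response was higher in red and the 90 whose day 11 response was lower in blue; the diagonal marks equal responses. Most coloured points lie close to 0 on the day 4 axis and away from 0 on the day 11 axis, and FGF2 and FZD10 are examples that rose more on day 4.

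The response difference equals the day difference at 4 h minus the day difference at 0 h, so each called probe set was placed by these components. A day difference, or gap, is day 11 minus day 4. In 104 probe sets the days differed at 0 h and no longer differed detectably at 4 h, and these are called closed gaps (65 with a higher and 39 with a lower day 11 response). In 82 the days differed at 4 h and not detectably at 0 h, an opened gap (60 higher, 22 lower). In 53 the gap was called at both times with opposite signs, a turned gap (35 and 18), and in 25 it was called at both times with the same sign (14 and 11). A gap that missed the threshold was not shown to be absent. The median absolute gap in the closed class was 0.83 at 0 h and 0.18 at 4 h, and in the opened class 0.18 at 0 h and 1.01 at 4 h.

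A gap at 0 h was called for 182 of the 264 (68.9%), against 33.8% of all probe sets tested and 47.5% of those that changed on day 11. The 0 h arrays enter both the gap and the response difference, so these shares are a description of the calls and not a separate result. Of the 174 probe sets with a higher day 11 response, 107 began lower on day 11 and 7 began higher. Of the 90 with a lower day 11 response, 64 began higher on day 11 and 4 began lower. A logarithm can turn the sign of the difference where the gap kept its sign, and in 24 of those 25 probe sets the difference had the same sign on the linear scale.

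**Figure D2:**
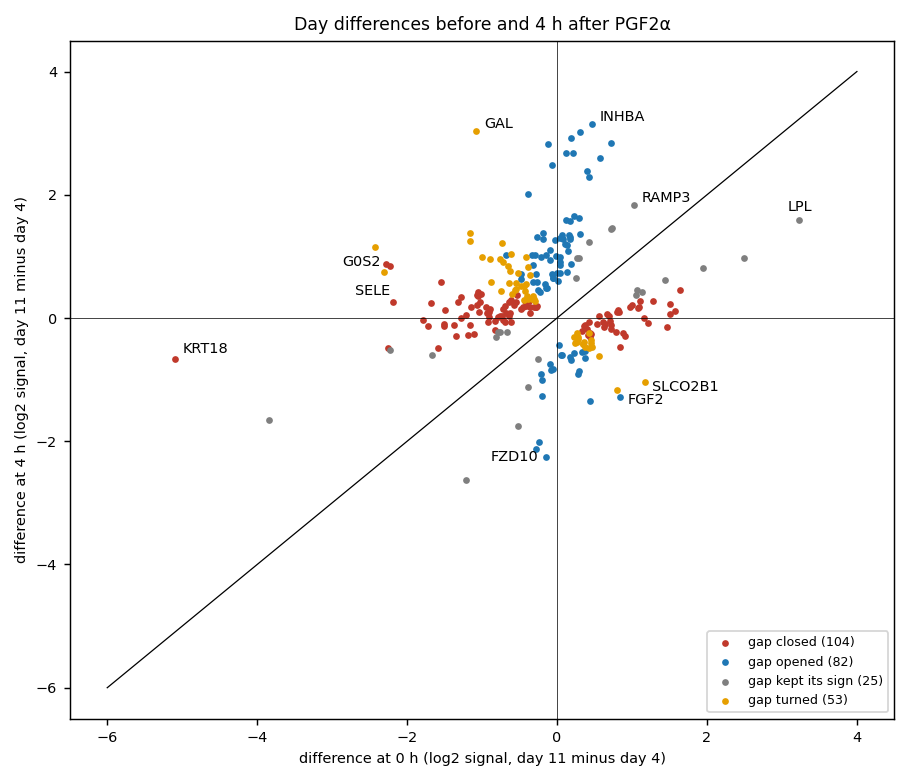
Day difference (log2 signal, day 11 minus day 4) at 0 h (horizontal axis) and at 4 h (vertical axis) for the 264 probe sets whose 4 h response differed, coloured by class; the diagonal marks an unchanged gap. KRT18 lies far to the left and near 0 at 4 h, INHBA near 0 at 0 h and high at 4 h, and GAL below 0 at 0 h and above 0 at 4 h.

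The receptor itself responded on both days. PTGFR, the PGF2α receptor, stood at log2 signals of 11.42, 11.36, 11.51, 11.40 and 11.58 in day 4, 0 h replicates 1 to 5 and at 10.27, 10.66, 10.71, 10.69 and 10.61 at 4 h. On day 11 it stood at 11.41, 11.28, 11.48, 11.54 and 11.62 at 0 h and at 10.44, 10.96, 11.14, 11.02 and 11.14 at 4 h. All 5 values at 4 h lay below all 5 at 0 h on each day, and the days overlapped at both times. PTGFR fell by 0.87 on day 4 (SE 0.14, limma adjusted p = 0.0003) and by 0.52 on day 11 (SE 0.14, adjusted p = 0.0091), and the responses differed by 0.34 with a 95% interval from -0.07 to 0.75 (adjusted p = 0.55). Among 26 measured genes of Gq, calcium, protein kinase C and MAPK signalling, 1 had a lower response on day 11 and none a higher one. That gene was PLCB4, a phospholipase C that Gq activates, with a difference of -0.75 ± 0.18 (SE, adjusted p = 0.035). Its call was lost on leaving out any 1 of 13 arrays (adjusted p up to 0.079), and its dimmer probe sets gave differences of 0.30 and 0.32.

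Genes of progesterone synthesis gave no called difference. None of the 26 measured members passed by limma (4 were lower and none higher at unadjusted p under 0.05), and their median difference was -0.03, against -0.02 over all genes. On day 11, 5 of the 26 fell and none rose, and on day 4 none changed by the test. Over all probe sets, 10.3% fell on day 11 and 1.55% on day 4. STAR, which moves cholesterol into mitochondria, ranged from 12.75 to 13.00 at 0 h and 12.53 to 12.80 at 4 h on day 4, and from 13.48 to 13.74 and 13.22 to 13.41 on day 11. The response difference of STAR was -0.10 with a 95% interval from -0.72 to 0.51. CYP11A1, which cleaves the cholesterol side chain, had a difference of 0.02 (interval -0.19 to 0.22), and HSD3B1, which makes progesterone from pregnenolone, had 0.00 (interval -0.55 to 0.55). HSD3B1 stood 0.31 lower at 4 h on each day, without overlap, at signals near the top of the scale. The intervals of STAR and HSD3B1 include the spread of the day 11, 24 h arrays, with SDs of 0.83 and 0.76. Within the 4 groups compared, the SDs were 0.08 to 0.12 for STAR and 0.07 to 0.10 for HSD3B1. LHCGR, the luteinizing hormone receptor, had -0.50 (interval -1.33 to 0.33). The orphan receptor NR5A2, a transcription factor of steroidogenic genes, fell on day 11 by 1.31 (adjusted p = 0.0014) and stood 0.26 lower on day 4 (adjusted p = 0.82), with a response difference of -1.05 ± 0.40 (adjusted p = 0.24). CYP21A2, the steroid 21-hydroxylase that uses progesterone as a substrate, fell by 1.64 on day 4 (adjusted p = 0.0069) and stood 0.48 higher on day 11 (adjusted p = 0.42). Its difference of 2.13 ± 0.52 (adjusted p = 0.035) was called, but the call was lost on leaving out any 1 of 10 arrays (adjusted p up to 0.08).

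Of 22 measured transcription factors of the immediate-early class, 9 rose on day 4 and 11 on day 11, and 3 had a higher response on day 11 (FOSB, ATF3 and FOSL1), with a median difference of 0.23 against -0.02 over all genes. Of all genes, 3.29% rose on day 4 and 10.1% on day 11. FOSB, an AP-1 subunit, stood at 5.11, 4.54, 4.93, 4.52 and 4.55 in day 4, 0 h replicates 1 to 5 and at 5.77, 6.03, 6.47, 5.40 and 6.06 at 4 h. The day 11 arrays gave 5.72, 4.56, 4.85, 6.25 and 5.15 at 0 h and at 8.34, 9.24, 8.46, 8.24 and 8.47 at 4 h. The days overlapped at 0 h, while every day 11 array lay above every day 4 array at 4 h. The response difference was 2.03 ± 0.35 (SE, adjusted p = 0.0016), a 4.08-fold larger rise on day 11.

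ATF3, a stress-induced transcription factor, ranged from 5.86 to 6.60 at 0 h and 6.66 to 8.60 at 4 h on day 4, and from 5.87 to 7.43 and 9.69 to 10.60 on day 11. It rose on both days, and the groups of the days overlapped at 0 h and not at 4 h. Its difference was 1.86 ± 0.43 (adjusted p = 0.025), with adjusted p values up to 0.051 when day 11, 4 h replicate 4 or day 4, 0 h replicate 3 was left out. FOSL1, another AP-1 subunit, rose on day 11 by 1.65 and had a difference of 1.20 ± 0.28 (adjusted p = 0.031). This call was lost on leaving out any 1 of 10 arrays (adjusted p up to 0.068). NR4A1, an orphan receptor of the same early class, ranged widely at 0 h on day 11, from 6.99 to 10.67, and its difference was -0.67 with an interval from -2.09 to 0.74. The mean of the whole immediate-early list also varied in that group. It was 8.84 and 9.16 in replicates 1 and 4 and 7.79 to 8.15 in the others. The SD of the list mean was 0.57 in day 11, 0 h arrays and 0.09 in day 4, 0 h arrays.

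The strongest difference of all named genes was that of KRT18, a keratin of simple epithelia that forms intermediate filaments with KRT8. KRT18 stood at 12.60, 12.19, 12.72, 12.32 and 12.02 in day 4, 0 h replicates 1 to 5 and at 11.91, 12.72, 12.76, 12.72 and 12.89 at 4 h. Day 11 signals were 7.30, 7.65, 7.11, 6.72 and 7.59 at 0 h and at 11.66, 12.39, 12, 11.61 and 12.05 at 4 h. All day 4 arrays and the treated day 11 arrays were high, and the untreated day 11 arrays alone were low. The response difference was 4.44 ± 0.40 (SE, limma adjusted p = 1.2e-07), a 21.7-fold larger rise on day 11. The gap between the days was -5.10 at 0 h and -0.66 at 4 h (adjusted p = 0.08), so this was a closed gap.

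KRT18 was the 1 called gene of 28 measured keratins and epithelial junction genes. Its partner KRT8 had group means of 4.89 and 4.86 at 0 h and 4 h on day 4 and of 4.24 and 4.40 on day 11, with a response difference of 0.19 ± 0.20 (adjusted p = 0.81). The day 11 means of KRT8 were below 4.50, the level under which the dimmest 30% of probe sets lay. Of the 6 epithelial markers measured, EPCAM and KRT19 were below that level in all 4 groups, and the sum of the 6 linear signals ranged from 4421 to 7234 and 4166 to 7960 on day 4 and from 245 to 335 and 3467 to 5654 on day 11. KRT18 itself made up at least 90.4% of that sum in every array outside the untreated day 11 group, where it made up 42.9% to 63.1%. Without KRT18 the sum of the other 5 markers ranged from 214 to 468 and 267 to 494 on day 4 and from 113 to 160 and 237 to 335 on day 11. The part of epithelial cells in the KRT18 result was not tested.

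Of 17 measured adhesion molecules of vessel walls, 6 rose and none fell on day 4, while 9 rose and 2 fell on day 11, and the difference was called higher for SELE and lower for JAM2. SELE, the endothelial selectin that slows leukocytes, stood at 6.76, 5.99, 6.11, 6.67 and 6.07 in day 4, 0 h replicates 1 to 5 and at 6.75, 7.04, 5.71, 6.48 and 6.46 at 4 h. In the day 11 glands the signals were 4.33, 4.37, 3.84, 4.34 and 3.78 at 0 h, below the dim level in every array, and at 8.17, 7.07, 6.60, 6.36 and 5.59 at 4 h. The 0 h groups did not overlap and the 4 h groups did. The response difference was 2.46 ± 0.43 (adjusted p = 0.0021). SELP, the selectin released from endothelial granules, rose on both days (1.58 on day 4 and 2.72 on day 11), with a difference of 1.14 and an adjusted p of 0.42. JAM2, a junctional protein of endothelium, had a difference of -0.90 ± 0.23 (adjusted p = 0.049), and this call was lost on leaving out any 1 of 21 arrays (adjusted p up to 0.10). The 7 endothelial markers gave no called difference by limma (2 lower and none higher at unadjusted p under 0.05). Their summed linear signal ranged from 1259 to 1841 and 1769 to 2595 on day 4 and from 1978 to 2302 and 2109 to 3173 on day 11. The part of endothelial cells in the SELE, SELP and JAM2 results was not tested.

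AMIGO2, a membrane protein that mediates cell adhesion, opened a gap. It ranged from 5.59 to 6.54 at 0 h and 5.97 to 7.02 at 4 h on day 4, and from 5.71 to 6.11 and 8.53 to 9.74 on day 11. Only the treated day 11 glands stood apart. The difference was 2.94 ± 0.35 (adjusted p = 1.2e-05), and a second probe set gave 2.55 (adjusted p = 9.2e-07). CNN1, a calponin of smooth muscle, rose on both days, by 1.06 and 2.67, with a difference of 1.62 ± 0.40 (adjusted p = 0.039; lost on leaving out any 1 of 15 arrays, up to 0.086). The other 5 markers of pericytes and smooth muscle gave no call, but 3 of them were lower at unadjusted p under 0.05, and the median difference of all 6 was -0.43. Of 33 actomyosin and smooth muscle genes, CNN1 was the 1 called, with 3 higher and 5 lower at unadjusted p under 0.05. The summed linear signal of all 6 ranged from 5565 to 7917 and 7611 to 12249 on day 4 and from 3916 to 6688 and 3834 to 7030 on day 11. The part of these cells in the CNN1 result was not tested.

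**Figure D3:**
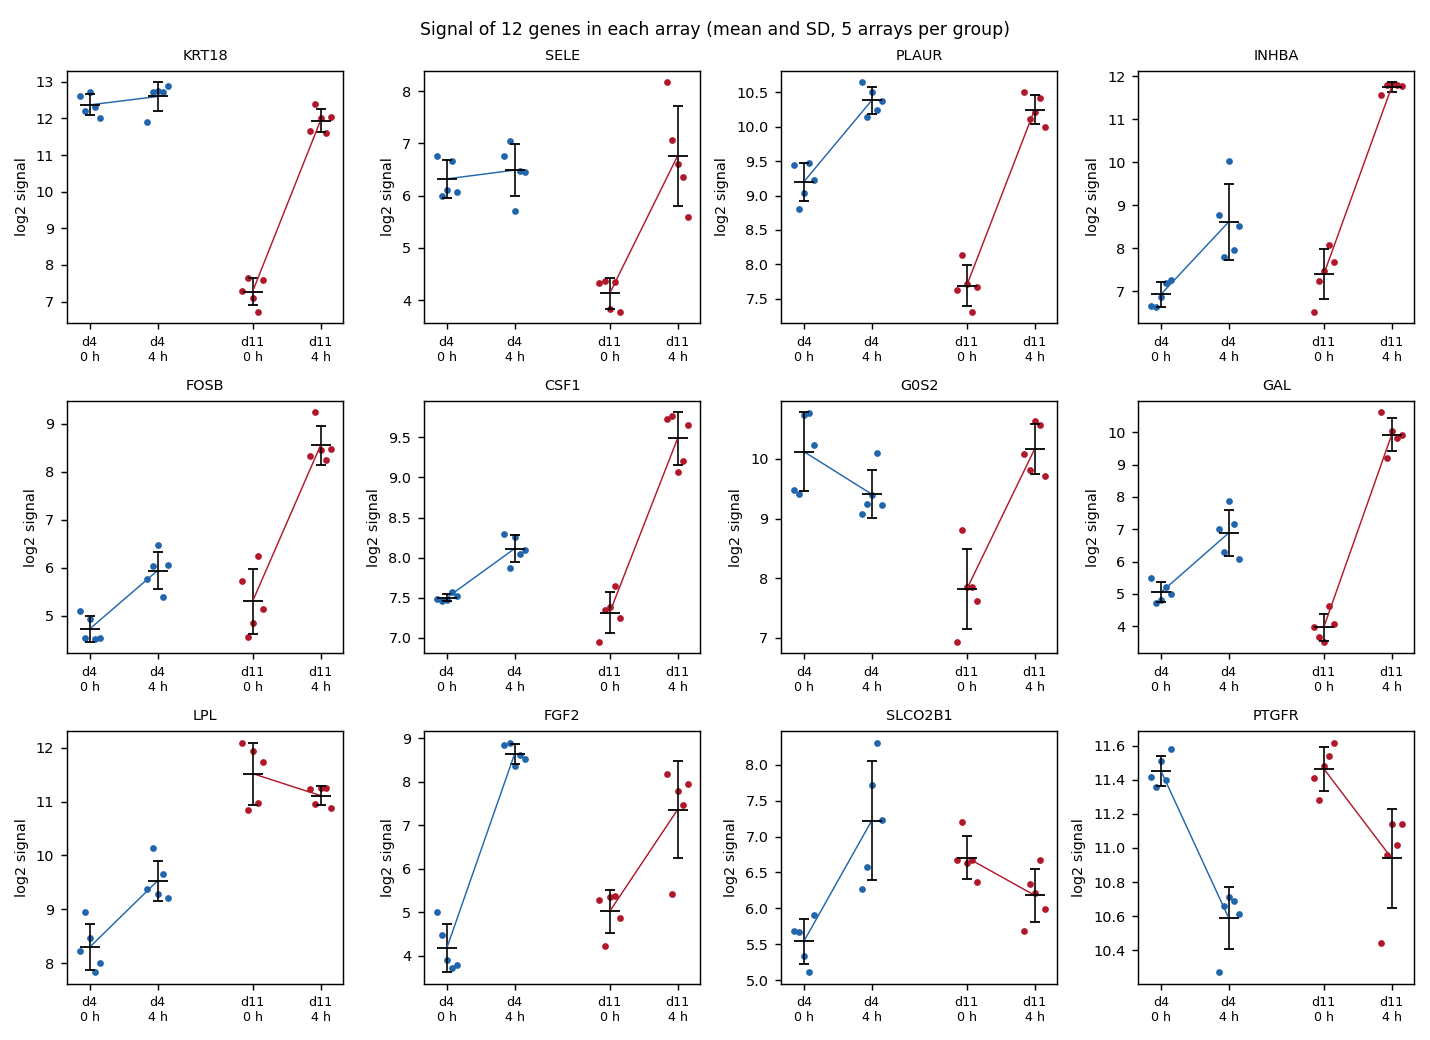
Log2 signal of 12 genes in each array on day 4 (blue) and day 11 (red), at 0 h and 4 h after PGF2α; points are arrays, and black bars give the mean and SD of 5 arrays. KRT18, SELE and PLAUR began lower on day 11 and reached the range of the day 4 arrays at 4 h, whereas INHBA, FOSB and CSF1 overlapped between the days at 0 h and stood apart at 4 h.

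Secreted growth factors and hormones differed in both directions. INHBA, the βA subunit of activin A and inhibin A, stood at 6.66, 6.64, 6.86, 7.19 and 7.27 in day 4, 0 h replicates 1 to 5 and at 8.77, 7.79, 10.04, 7.96 and 8.51 at 4 h. On day 11 it stood at 6.52, 7.23, 7.47, 8.08 and 7.67 at 0 h and at 11.56, 11.81, 11.83, 11.80 and 11.78 at 4 h. It rose in both glands, the days overlapped at 0 h, and the treated day 11 arrays lay above all others within a narrow range. The response difference was 2.67 ± 0.48 (adjusted p = 0.0029). Of 26 measured activin, inhibin and TGF-beta genes, the only other call was BMPR1A, a bone morphogenetic protein receptor, with -0.70 ± 0.17 (adjusted p = 0.043). That call was lost on leaving out any 1 of 12 arrays (up to 0.096), and a dimmer probe set gave -0.28.

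GAL, the neuropeptide galanin, turned its gap. It stood at 5.48, 4.71, 4.82, 5.22 and 4.99 in day 4, 0 h replicates 1 to 5 and at 7.01, 6.31, 7.88, 7.16 and 6.08 at 4 h. The day 11 arrays gave 3.98, 3.68, 3.51, 4.61 and 4.06 at 0 h and at 10.62, 9.20, 10.05, 9.84 and 9.91 at 4 h. No group overlapped with another day or time: day 11 was lowest at 0 h and highest at 4 h. The rise was 1.84 on day 4 and 5.95 on day 11, and the difference was 4.11 ± 0.49 (adjusted p = 1.2e-05). The day 11, 0 h mean was below the dim level. Of 17 measured peptide hormones of this list, GAL was the 1 called, and PTHLH (parathyroid hormone-like hormone) fell on both days by 1.92, with a difference of 0.01 and an interval from -0.69 to 0.70. OXT, the oxytocin that the bovine gland makes, had a difference of 0.07 (interval -0.14 to 0.27), at signals between 13.50 and 14.05 that lie near 14.35, the highest value of the data.

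FGF2, an angiogenic fibroblast growth factor, rose more on day 4. It stood at 5.00, 4.48, 3.90, 3.71 and 3.78 in day 4, 0 h replicates 1 to 5 and at 8.84, 8.90, 8.35, 8.61 and 8.51 at 4 h. Day 11 signals were 5.28, 4.22, 5.35, 5.38 and 4.86 at 0 h and at 8.17, 5.42, 7.79, 7.46 and 7.94 at 4 h. FGF2 rose on both days without overlap between 0 h and 4 h, and all treated day 4 arrays lay above all treated day 11 arrays. The rise was 4.47 on day 4 and 2.34 on day 11, with a difference of -2.13 ± 0.51 (adjusted p = 0.031). A second probe set gave -2.11 (adjusted p = 0.018). The call of the brighter probe set was lost on leaving out any 1 of 7 arrays (adjusted p up to 0.066), and the day 4, 0 h mean was below the dim level.

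Of 37 genes of blood vessel growth and tone, FGF2 and NOS2, the inducible nitric oxide synthase, had a lower response on day 11 and none a higher one. NOS2 closed a gap, from 1.08 at 0 h to 0.17 at 4 h, with a response difference of -0.91 ± 0.21 (adjusted p = 0.022). Leaving out day 4, 0 h replicate 3 or day 4, 4 h replicate 3 gave adjusted p values up to 0.051, and its 3 dimmer probe sets gave -0.12, 0.06 and 0.13. VEGFA, the main endothelial growth factor, fell by 0.78 on day 11 (adjusted p = 0.0028), and its difference was -0.45 with an interval from -0.98 to 0.08. EDN1, the vasoconstrictor endothelin, rose by 1.36 on day 4 and by 1.99 on day 11, with a difference of 0.63 (interval -0.25 to 1.52).

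Ligands and receptors of the epidermal growth factor receptor family were read from 8 measured genes, of which NRG1 alone was called. NRG1, a ligand of ERBB3 and ERBB4, ranged from 3.37 to 3.57 at 0 h and 3.59 to 4.20 at 4 h on day 4, and from 2.97 to 3.80 and 4.53 to 5.43 on day 11. Its means were below the dim level in every group but the treated day 11 glands. The difference was 1.17 ± 0.23 (adjusted p = 0.0072). AREG, the ligand amphiregulin, rose steeply on both days. The untreated arrays ranged from 5.99 to 8.07 on day 4 and 3.2 to 4.05 (below the dim level) on day 11, and the treated ones from 10.49 to 10.84 and 8.32 to 9.31. Its day difference remained called at 4 h (-1.64, adjusted p = 0.00015), and the response difference of 1.64 ± 0.44 missed the threshold (adjusted p = 0.063). It passed with array weights, with a replicate block and on leaving out any 1 of 4 arrays (adjusted p down to 0.014). On the linear scale the sign was the opposite, as the signal of AREG rose by 1455 on day 4 and by 513 on day 11. FZD10, a receptor for Wnt ligands, rose by 2.71 on day 4 and 0.87 on day 11. It was below the dim level on average in 3 of the 4 groups, and treated day 4 arrays (5.95 to 6.97) lay above all treated day 11 arrays (3.83 to 5.37). The difference was -1.84 ± 0.30 (adjusted p = 0.0012).

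Of 28 measured cytokines and colony stimulating factors, 10 rose on day 4 and 18 on day 11, and 2 had a called difference, both higher on day 11. Of 21 chemokines, 10 rose on day 4 and 16 on day 11, and none had a called difference by limma (5 were higher and none lower at unadjusted p under 0.05). CCL2, which draws monocytes, rose by 2.23 on day 4 and 2.80 on day 11, with a difference of 0.57 (interval -0.36 to 1.5). CXCL8, which draws neutrophils, rose by 3.42 and 3.28, with a difference of -0.14 (interval -1.83 to 1.56). CXCL11, an interferon-induced ligand of CXCR3, rose by 1.46 on day 11, with 1 of the 5 treated arrays at 3.12 and the others at 4.68 to 5.13, and its difference of 1.29 missed the threshold (adjusted p = 0.065). Its means were below the dim level in every group but the treated day 11 glands. CXCL11 passed with array medians subtracted, with array weights and without day 11, 4 h replicate 2 (the array at 3.12) or day 4, 4 h replicate 1 (adjusted p down to 0.00026). PTGS2, the inducible prostaglandin synthase, rose by 1.45 on day 4 (adjusted p = 0.013) and stood 0.74 higher on day 11 (adjusted p = 0.16), with overlap between 0 h and 4 h on each day and a difference of -0.71 (interval -1.72 to 0.30). Its 0 h means were below the dim level on both days.

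CSF1, the growth factor of macrophages, stood at 7.49, 7.46, 7.47, 7.57 and 7.52 in day 4, 0 h replicates 1 to 5 and at 8.29, 7.87, 8.26, 8.05 and 8.10 at 4 h. In the day 11 glands the signals were 6.95, 7.35, 7.38, 7.65 and 7.25 at 0 h and at 9.73, 9.77, 9.07, 9.20 and 9.66 at 4 h. It rose in both glands, and at 4 h all day 11 arrays lay above all day 4 arrays. The difference was 1.56 ± 0.21 (adjusted p = 8.4e-05), and a dimmer probe set of the gene gave -0.02. IL18, a cytokine of the interleukin-1 family, closed a gap of -1.04 at 0 h, with a difference of 1.13 ± 0.28 (adjusted p = 0.038; lost on leaving out any 1 of 13 arrays, up to 0.078). The 7 macrophage markers measured gave no called difference, and their summed linear signal ranged from 1159 to 1261 and 1228 to 3035 on day 4 and from 2607 to 4800 and 3033 to 11503 on day 11. For the 4 neutrophil markers, of which ITGAM was below the dim level in all groups, the sum ranged from 344 to 1244 and 919 to 2193 on day 4 and from 200 to 460 and 662 to 4305 on day 11. The highest sums at 4 h, 2193 and 4305, were those of replicate 1 on each day. The other 4 h arrays lay at 919 to 1147 on day 4 and 662 to 1118 on day 11. The part of macrophages and neutrophils in the cytokine and selectin results was not tested.

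TNFRSF6B, a soluble decoy receptor that binds FAS ligand, stood at 6.38, 5.86, 5.57, 6.43 and 6.28 in day 4, 0 h replicates 1 to 5 and at 6.89, 6.78, 6.78, 6.87 and 6.78 at 4 h. On day 11 it stood at 4.28, 4.62, 5.11, 5.24 and 5.45 at 0 h and at 8.52, 8.25, 8.02, 8.08 and 8.12 at 4 h. The untreated day 11 arrays were the lowest and the treated day 11 arrays the highest, with no overlap between days at either time. The difference was 2.54 ± 0.31 (adjusted p = 1.4e-05). TNFRSF12A, the receptor of the cytokine TWEAK, closed a gap of -1.21, rising by 1.64 on day 11 and standing 0.38 higher on day 4 (adjusted p = 0.16), with a difference of 1.25 ± 0.20 (adjusted p = 0.0011). A dimmer probe set of TNFRSF12A gave 0.71 (adjusted p = 0.14). CFLAR, an inhibitor of caspase-8 activation, rose by 1.10 on day 4 and 2.13 on day 11, and its difference of 1.03 ± 0.25 (adjusted p = 0.038) was lost on leaving out any 1 of 12 arrays (up to 0.089). Its dimmer probe sets gave 0.73 and 0.83 (adjusted p = 0.076 and 0.15). TNFRSF12A and CFLAR were the 2 called of 25 measured genes of NF-kB feedback and apoptosis, 12 of which rose on day 4 and 15 on day 11.

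Interferon-stimulated genes had the highest median difference of the lists, 0.92 over 28 measured genes against -0.02 over all genes, with no member called by limma (13 higher and none lower at unadjusted p under 0.05). On day 11, 9 of the 28 rose, and on day 4 none changed by the test. The median gap of the list was 0.29 at 0 h and 1.23 at 4 h, against -0.02 and -0.03 over all genes. The list mean per array ranged from 6.49 to 7.64 at 0 h and 6.55 to 7.24 at 4 h on day 4, and from 6.78 to 7.80 and 7.49 to 9.32 on day 11. The groups of 0 h and 4 h overlapped on both days, and the treated day 11 arrays lay above the treated day 4 arrays. USP18, the protease that removes ISG15, ranged from 6.95 to 9.26 in the untreated day 4 arrays and from 7.59 to 10.61 in the treated day 11 arrays, with a difference of 2.02 ± 0.56 (adjusted p = 0.072; down to 0.022 on leaving out 1 array).

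The interferon result leaned on single arrays. The highest list mean, 9.32, was that of day 11, 4 h replicate 4, and without that array the median difference of the list was 0.47. That array also had the highest macrophage marker sum at 4 h, 11503, against 3033 to 6807 in the other treated day 11 arrays, and its part in the list was not tested. In the other direction, 5 of the 28 were called without day 11, 4 h replicate 3, 4 without day 4, 0 h replicate 2, 2 without day 11, 0 h replicate 2 and 1 without day 11, 4 h replicate 1.

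**Figure D4:**
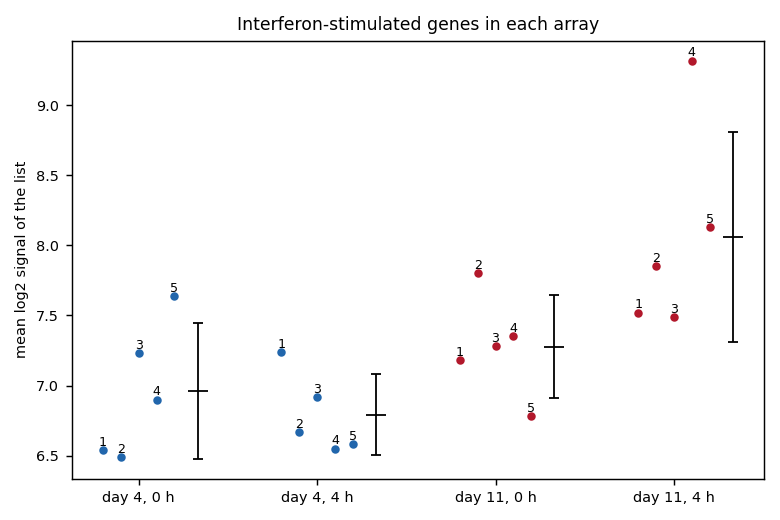
Mean log2 signal of 28 interferon-stimulated genes in each array, numbered by replicate, on day 4 (blue) and day 11 (red); bars give the mean and SD of 5 arrays. Treated day 11 arrays lie between 7.49 and 9.32 with replicate 4 above the rest, and untreated arrays of both days lie between 6.49 and 7.80.

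Genes of matrix turnover gave 2 calls, both higher on day 11. PLAUR, the urokinase receptor, stood at 9.45, 8.81, 9.04, 9.47 and 9.23 in day 4, 0 h replicates 1 to 5 and at 10.65, 10.15, 10.50, 10.24 and 10.38 at 4 h. The day 11 arrays gave 7.63, 8.14, 7.71, 7.31 and 7.67 at 0 h and at 10.50, 10.11, 10.22, 10.42 and 10 at 4 h. It rose in both glands to the same range from different starts, and the difference was 1.37 ± 0.23 (adjusted p = 0.0015). MMP1, the interstitial collagenase, ranged from 3.52 to 4.05 at 0 h and 4.13 to 6.34 at 4 h on day 4, and from 3.25 to 3.69 and 6.02 to 7.85 on day 11. The 4 h arrays of the days overlapped, both 0 h means were below the dim level, and the difference was 2.41 ± 0.54 (adjusted p = 0.019). PLAUR and MMP1 were the 2 called of 25 matrix proteases and inhibitors, with 3 that rose on day 4 and 10 on day 11.

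SERPINA14, a serpin known from the ruminant uterus, stood at 6.23, 7.50, 7.13, 5.59 and 5.54 in day 4, 0 h replicates 1 to 5 and at 8.01, 7.70, 8.61, 6.93 and 8.07 at 4 h. Day 11 signals were 3.65, 4.64, 4.41, 3.58 and 4.26 at 0 h and at 7.70, 7.74, 9.54, 9.90 and 8.83 at 4 h. The untreated day 11 arrays were the lowest, with a mean below the dim level, and the 4 h arrays of the days overlapped. The difference was 3.17 ± 0.64 (adjusted p = 0.0091), and a second probe set gave 3.07 (adjusted p = 0.025). HS3ST5, a sulfotransferase that modifies heparan sulfate, ranged from 3.40 to 5.64 in the other 3 groups and from 6.66 to 8.13 in the treated day 11 arrays, with a difference of 2.74 ± 0.48 (adjusted p = 0.0019). Its means in those other 3 groups were below the dim level. The 36 collagens and matrix glycoproteins gave no call by limma (2 higher and 11 lower at unadjusted p under 0.05) and a median difference of -0.30. The 6 fibroblast markers had a median difference of -0.31 and summed linear signals of 38920 to 46515 and 41518 to 49047 on day 4 and of 31193 to 42945 and 21926 to 38453 on day 11. These markers include the collagens COL1A1, COL1A2 and COL3A1, so their median is not separate from that of the collagens. The part of fibroblasts in the median of the collagens and matrix glycoproteins was not tested.

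Genes of lipid storage moved in both directions. G0S2, an inhibitor of the lipase that opens lipid droplets, stood at 9.47, 9.41, 10.73, 10.77 and 10.23 in day 4, 0 h replicates 1 to 5 and at 9.08, 9.24, 9.40, 10.09 and 9.23 at 4 h. In the day 11 glands the signals were 6.93, 8.81, 7.85, 7.86 and 7.62 at 0 h and at 10.08, 9.82, 10.64, 10.56 and 9.72 at 4 h. The untreated day 11 arrays were below all others, and the 4 h arrays of the days overlapped. G0S2 rose by 2.35 on day 11 (adjusted p = 9.4e-07) and stood 0.72 lower on day 4 (adjusted p = 0.21), with a difference of 3.06 ± 0.41 (adjusted p = 8.3e-05). PLIN2, a coat protein of lipid droplets, rose on both days, by 0.71 and 1.52, with a difference of 0.81 ± 0.16 (adjusted p = 0.0071), at 4 h signals between 13.29 and 13.90.

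LPL, the lipase that releases fatty acids from lipoproteins, stood at 8.23, 8.94, 8.47, 7.83 and 8.01 in day 4, 0 h replicates 1 to 5 and at 9.37, 10.13, 9.29, 9.65 and 9.21 at 4 h. On day 11 it stood at 12.10, 10.85, 11.95, 10.97 and 11.74 at 0 h and at 11.24, 10.95, 11.25, 11.25 and 10.88 at 4 h. All day 11 arrays were above all day 4 arrays at both times, and the gap narrowed from 3.22 to 1.58. LPL rose on day 4 by 1.23 (adjusted p = 0.0027) and stood 0.40 lower on day 11 (adjusted p = 0.29), with a difference of -1.64 ± 0.35 (adjusted p = 0.014). G0S2, PLIN2 and LPL were the 3 called of 28 measured genes of lipid droplets, lipolysis and fatty acid uptake. None of 24 genes of cholesterol synthesis and transport was called by limma (1 higher and 2 lower at unadjusted p under 0.05).

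Several metabolic and transport genes had a lower response on day 11. SLCO2B1, an organic anion transporter, stood at 5.68, 5.67, 5.33, 5.11 and 5.91 in day 4, 0 h replicates 1 to 5 and at 6.27, 6.58, 7.72, 8.31 and 7.23 at 4 h. The day 11 arrays gave 6.67, 7.20, 6.63, 6.67 and 6.37 at 0 h and at 5.69, 6.34, 6.21, 6.68 and 5.99 at 4 h. It rose in the day 4 gland without overlap, and the day 11 arrays of 0 h and 4 h overlapped. The difference was -2.21 ± 0.39 (adjusted p = 0.0025), the largest negative one among the named genes, while a dimmer probe set gave -0.55 (adjusted p = 0.14). BCAT2, the mitochondrial enzyme that starts breakdown of branched-chain amino acids, fell by 1.01 on day 11 (adjusted p = 0.0047) and stood 0.78 higher on day 4 (adjusted p = 0.078), with a difference of -1.80 ± 0.36 (adjusted p = 0.007). It was the 1 called of 30 measured amino acid enzymes, and a second probe set of BCAT2, at a mean signal of 3.57, gave -0.27. Of the 30, 9 fell and 1 rose on day 11, and 1 fell and 1 rose on day 4. Over all probe sets, 10.3% fell on day 11 and 1.55% on day 4.

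COQ8A, a protein of coenzyme Q synthesis, stood above day 4 on day 11 at both times without overlap. It fell by 1.17 on day 11 (adjusted p = 1.7e-05), with a difference of -1.13 ± 0.25 (adjusted p = 0.017). BTNL9, a butyrophilin-like membrane protein, stood at 5.22 to 6.64 in the untreated day 11 arrays and at 3.73 to 4.79 in the other 3 groups, whose means were below the dim level, and closed that gap at 4 h, with a difference of -1.46 ± 0.33 (adjusted p = 0.023; 0.051 without day 4, 0 h replicate 3). None of 43 genes of oxidative phosphorylation and none of 31 of fatty acid oxidation and the TCA cycle had a called response difference by limma (1 higher; 3 lower, at unadjusted p under 0.05), with medians of -0.03 and -0.06. On day 11, 11 of the 43 and 11 of the 31 fell and none rose, and on day 4 none of either list changed by the test. Over all probe sets, 10.3% fell on day 11 and 1.55% on day 4. Median responses were -0.10 and -0.14 for oxidative phosphorylation on day 4 and day 11, and -0.13 and -0.15 for the other list.

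Of 33 measured stress protein, metallothionein and antioxidant genes, 1 rose on day 4, while 10 rose and 1 fell on day 11. TXN, TXNRD1 and HSPA5 had a called response difference, each higher on day 11. TXN, thioredoxin, ranged from 13.29 to 13.40 and 13.34 to 13.41 on day 4 and from 12.48 to 12.62 and 13.05 to 13.24 on day 11, so its gap narrowed without closing. Its difference was 0.54 ± 0.08 (adjusted p = 0.00076), at signals near the top of the scale. TXNRD1, the reductase of thioredoxin, ranged from 9.42 to 9.97 over both day 4 groups and the untreated day 11 arrays ranged from 9.38 to 9.68, whereas treated day 11 arrays ranged from 9.89 to 11.15. The difference was 1.04 ± 0.23 (adjusted p = 0.019). HSPA5, a chaperone of the endoplasmic reticulum, had a difference of 0.55 ± 0.14 (adjusted p = 0.047), lost on leaving out any 1 of 22 arrays (up to 0.092). Its dimmer probe sets, at mean signals of 10.78 and 2.70, gave 0.42 and -0.05 (adjusted p = 0.61 and 0.95).

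Other genes with a called difference were PPP4R4 and RAMP3. PPP4R4, a regulatory subunit of protein phosphatase 4, ranged from 5.15 to 5.58 at 0 h and 5.15 to 5.50 at 4 h on day 4, and from 3.28 to 3.90 and 5.06 to 6.23 on day 11. It closed a gap of -1.68, with a difference of 1.93 ± 0.23 (adjusted p = 1.2e-05), and its day 11, 0 h mean was below the dim level. RAMP3, a partner of the calcitonin receptor-like receptor in adrenomedullin binding, widened its gap. It ranged from 7.67 to 7.98 and 7.52 to 7.97 on day 4 and from 8.49 to 9.07 and 9.27 to 9.80 on day 11, with a difference of 0.80 ± 0.15 (adjusted p = 0.0049).

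Large gaps between the days were also kept without a response difference. Of 49 cell cycle and mitosis genes, 44 were lower on day 11 at 0 h and 46 at 4 h, with median gaps of -2.02 and -2.14 (over all genes 26.5% and 26.7% were lower), and none had a called response difference by limma (3 higher and none lower at unadjusted p under 0.05). Of 32 genes of RNA polymerase I and ribosome biogenesis, 23 were lower on day 11 at each time, and none had a called response difference (6 higher and none lower at unadjusted p under 0.05). Hypoxia and glycolysis genes gave none of 32 (1 higher and 7 lower at unadjusted p under 0.05). In that list, SLC2A1, the main glucose transporter of many cells, rose by 0.66 on day 4 and 1.27 on day 11 (difference 0.61, adjusted p = 0.13; 0.018 without day 11, 4 h replicate 1).

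The 24 h arrays do not enter the means behind the response difference, so they show the same genes in other animals. Over all probe sets, a day difference was called at 24 h for 34.7%. Of the 82 opened gaps, 43 were called at 24 h with the sign they had at 4 h, none was called with the opposite sign, and 39 were not called. Of the 53 turned gaps, 27 were called at 24 h with their 4 h sign and 8 with the opposite sign. Of the 104 closed gaps, 59 were called at 24 h, 21 with the sign of the 0 h gap and 38 with the opposite sign, and of the 25 that kept their sign 9 were called with it and 3 with the opposite one. The change of the gap from 4 h to 24 h was called for 35 of the 104 closed gaps, 41 of the 82 opened gaps, 19 of the 53 turned gaps and 18 of the 25 that kept their sign. Over all probe sets it was called for 17.6%. The 4 h arrays enter both that change and the response difference, so these counts are a description.

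Individual genes followed different courses. INHBA, GAL, AMIGO2 and HS3ST5 stayed higher on day 11 at 24 h, by 2.56, 3.44, 1.94 and 1.57 (adjusted p between 5.6e-09 and 0.00046), and the arrays of the days did not overlap. NRG1 and TXNRD1 moved further apart from 4 h to 24 h, by 1.00 (adjusted p = 0.0025) and 0.77 (adjusted p = 0.019), to gaps of 2.03 and 1.71. ATF3 and MMP1 had gaps of 3.25 and 3.43 at 24 h, and their change from 4 h was not called (adjusted p = 0.13 and 0.068). KRT18 was again lower on day 11 at 24 h, with a gap of -2.92 (adjusted p = 3.5e-09) and array values of 7.89 to 9.65 against 10.74 to 12.40 on day 4. FGF2 and FZD10 differed by -0.40 and 0.19 at 24 h, with adjusted p values of 0.43 and 0.56, and RAMP3 by 0.03. BCAT2 was 3.50 lower on day 11 at 24 h (adjusted p = 1.3e-11), after a gap of -1.35 at 4 h.

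**Figure D5:**
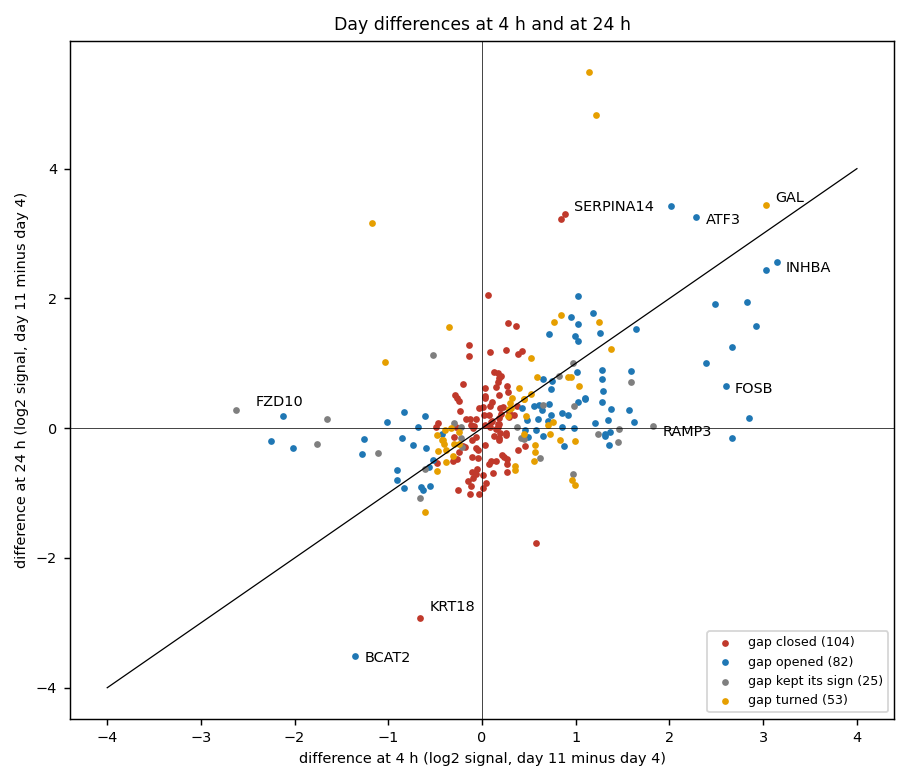
Day difference (log2 signal, day 11 minus day 4) at 4 h (horizontal axis) and at 24 h (vertical axis) for the 264 probe sets whose 4 h response differed, coloured by class; the diagonal marks an equal gap at both times. GAL and INHBA lie high at both times, FZD10 and RAMP3 are near 0 at 24 h, and KRT18 lies lower at 24 h than at 4 h.

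The tissue carried the markers of a corpus luteum in all 4 groups, with none of the 6 luteal markers below the dim level. Of the 7 endothelial markers, VWF was below it in all 4 groups and KDR in every group but day 11, 0 h. The remaining endothelial markers were not below it in any group. The lymphocyte markers CD4, GZMB, CD79A and MS4A1 and the erythrocyte markers ALAS2 and HBA were below it in all 4 groups. Day 11, 4 h replicate 1 stood apart in the 3′ minus 5′ difference of a control transcript, EF1A, at -1.40 against -2.46 to -2.28 in the other arrays of its group. Without that array 273 probe sets were called, 196 higher and 77 lower, and 213 of these were among the 264. Replicates were separate heifers, but no label records the day of collection or hybridization, so a batch could not be compared.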

How the data were processed

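Total RNA of luteal tissue was labelled with biotin and hybridized to 1 array per heifer, per the labels. The authors deposited log2 signals, 1 per probe set and array, made with RMA (background correction, normalization between arrays and summary of probes), per the submitters' processing notes; its version and the arrays normalized together are not given in the sources used here. The number of arrays limits the precision.

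The 112 control probe sets were left out. All 30 arrays were fitted in limma 3.58.1 (R 4.3.3) with a mean for each of 6 groups, contrasts and empirical Bayes moderation (24 residual degrees of freedom, 28.2 after moderation), and p values were adjusted over 24016 probe sets by Benjamini-Hochberg. The fit was tested on simulated data. Exactly 1 symbol was given for 13292 probe sets, several for 86 and none for 10638. A gene is read from its brightest probe set. The dim level, 4.50, is the 30th percentile of probe set means. SE follows a difference and SD a group mean.

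The 31 panel genes, the 38 lists (1027 entries, 823 measured), the members and the tests were chosen with earlier results of these data known, so list counts are descriptions. Named genes were the 8 largest called differences in each direction, the 5 largest in each class, up to 4 called members of each list (or the member with the smallest p) and the panel, where a function is known; KRT8 was added after its values were seen. Alternatives were normalization, array weights, a dim filter, a variance trend, a stricter threshold, fewer arrays, the mean of a gene's probe sets, a replicate block (also within each day) and leaving out each array.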

Additional observations from a re-analysis of the deposited data

Results flagged for a closer look

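Single arrays lay far from the others of their group in 18 of 236 sets of values (59 genes in 4 groups), by Dixon's test at its 95% critical value; chance gives about 1 such flag in 20 sets. In the treated day 11 group these were AREG at 8.32 in replicate 4, CXCL11 at 3.12 and FGF2 at 5.42 in replicate 2 (all lowest), FOSB at 9.24 in replicate 2 and VEGFA at 10.80 in replicate 3 (highest), and INHBA at 11.56 and PTGFR at 10.44 in replicate 1 (lowest). In the treated day 4 group they were KRT18 at 11.91 and PTGFR at 10.27 in replicate 1 (lowest), USP18 at 7.88 in replicate 1 and SLC2A1 at 10.56 in replicate 3 (highest). In the untreated day 11 group they were BCAT2 at 10.01 in replicate 4 (lowest), LHCGR at 8.92 and PTGS2 at 4.61 in replicate 4, and CXCL8 at 5.92 in replicate 5 (highest). In the untreated day 4 group they were CFLAR at 7.71 in replicate 3, HSPA5 at 12.46 in replicate 1 and PLCB4 at 8.61 in replicate 2 (highest).

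The 4 h response differed between the days, by the limma interaction with Benjamini-Hochberg adjustment, for 264 probe sets. Among genes named above, the day 11 minus day 4 difference was positive for KRT18 (4.44), GAL (4.11), SERPINA14 (3.17), G0S2 (3.06), AMIGO2 (2.94), HS3ST5 (2.74), INHBA (2.67), TNFRSF6B (2.54), SELE (2.46), MMP1 (2.41), CYP21A2 (2.13), FOSB (2.03), PPP4R4 (1.93), ATF3 (1.86), CNN1 (1.62) and CSF1 (1.56). It was positive and smaller for PLAUR (1.37), TNFRSF12A (1.25), FOSL1 (1.20), NRG1 (1.17), IL18 (1.13), TXNRD1 (1.04), CFLAR (1.03), PLIN2 (0.81), RAMP3 (0.80), HSPA5 (0.55) and TXN (0.54). It was negative for SLCO2B1 (-2.21), FGF2 (-2.13), FZD10 (-1.84), BCAT2 (-1.80), LPL (-1.64), BTNL9 (-1.46), COQ8A (-1.13), NOS2 (-0.91), JAM2 (-0.90), PLCB4 (-0.75) and BMPR1A (-0.70).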

How the results depend on the processing

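No gene named by the rule changed the sign of its called response difference under any alternative run. Of 42 such called genes, 23 stayed called at an adjusted p under 0.01, 42 under quantile normalization, 41 with array medians subtracted, 40 with array weights, 37 with the mean of a gene's probe sets and 33 in a fit to the 20 arrays alone. At adjusted p under 0.01 the counts were 94 for the response difference, 2599 for day 11, 464 for day 4 and 2578 for the change of the gap from 4 h to 24 h, with 35 closed, 39 opened, 17 turned gaps and 3 that kept their sign. The fit to the arrays of each contrast alone gave 2520 probe sets changed on day 11, 52 opened and 32 turned gaps. Array weights gave 1981 probe sets changed on day 4, 167 closed gaps and 41 that kept their sign, and leaving out the dimmest 30% gave 38 that kept their sign. Leaving out 1 array gave 157 to 356 probe sets with a response difference, 608 to 1120 changed on day 4, 62 to 144 closed, 45 to 113 opened, 35 to 67 turned gaps and 15 to 40 that kept their sign. The lowest counts for the difference and all classes came without day 4, 4 h replicate 2; closed gaps also moved beyond 1.5 times without replicate 3 of day 4 at 4 h and without replicate 3, or 4, of the untreated day 4 group, and gaps that kept their sign without day 11, 0 h replicate 2. The cause was not tested. Replicate numbers named different heifers and did not meet the criterion for pairing, a correlation of deviations over 0.1 in every pair of same-numbered arrays. That criterion takes in pairs of different days, so it could not decide on a pairing within 1 day. Same-numbered arrays of 0 h and 4 h of 1 day correlated at 0.146 to 0.214 on day 4, all above 0.1, and 0.063 to 0.233 on day 11. Those of different days correlated at -0.191 to 0.182. Among arrays of other groups, 14 of 30 arrays correlated best with an array of their own number, and each other group held 5 arrays, 1 of them with that number. With a replicate block 335 probe sets had a response difference, 253 of them among the 264, and 39 gaps kept their sign; AREG and NR0B1 were gained and JAM2 lost (adjusted p = 0.021, 0.046 and 0.052). A replicate block within each day, chosen after seeing the data, gave 324, 225 of them among the 264, with AREG, CCND2 and NR0B1 gained and FOSL1 lost (adjusted p = 0.028, 0.022, 0.016 and 0.051). Signal near background limits genes named as dim.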
